A study of Rattus norvegicus with 8 samples.

Results

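The genes described here are the vesicle fusion genes of the rat aorta: synaptotagmins (Syt), synaptotagmin-like genes (Sytl), synapsins (Syn), VAMPs (Vamp), syntaxins (Stx), SNAPs (Snap) and syntaxin-binding genes (Stxbp). They were picked from the deposited gene table by their names alone, which gave 58 of its 19238 genes: 17 Syt, 6 Sytl, 3 Syn, 7 Vamp, 14 Stx, 5 Snap and 6 Stxbp. They carry 57 symbols, since Sytl2 stands in the table under 2 gene records. Snap91 shares the name pattern but is known as AP180, a clathrin assembly protein of endocytosis, and is no SNARE.

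SNARE proteins join membranes: a VAMP on the vesicle zips up with a syntaxin and a SNAP on the target membrane, and the bundle pulls the membranes together. Sec1/Munc18 proteins, several of them named Stxbp, hold and guide the syntaxins, synaptotagmins sense calcium through their C2 domains, synapsins tie synaptic vesicles to the actin network, and most synaptotagmin-like proteins bind Rab27 on secretory granules. In an artery the ubiquitous members serve general membrane traffic and the release of granules by endothelial cells. In adipocytes Vamp2, Stx4, Snap23 and Stxbp3 bring the glucose transporter GLUT4 to the surface, and the neuronal members belong to nerve endings such as those of the sympathetic nerves in the outer vessel wall.

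Sequencing covered total RNA of thoracic aortas from 4 control Wistar rats and from 4 rats of the Goto-Kakizaki strain (GK), an inbred line bred from Wistar rats for inherited diabetes without obesity, whose group the labels call diabetic macroangiopathy. All rats were 7 to 8 weeks old, no agent was given per the labels, and each group holds libraries numbered 7 to 10. One label field names GK for all 8 libraries, so the groups here follow the title, strain and group fields. GK and Wistar differ in strain as well as in diabetes, so strain and disease cannot be told apart. Only the titles point to separate animals, and the p-values therefore measure no more than the spread between these samples, which may be technical. Values per library are CPM, counts scaled to the library's total after TMM normalization. Fold changes are GK over control on the log2 scale ± SE, with 4 libraries a group unless a library is named as left out. The SE was worked back from the test, as the absolute log2 fold change over the square root of its F statistic. Adjusted p-values are those of the edgeR quasi-likelihood fit, corrected by Benjamini and Hochberg's method over all genes tested, with a threshold of 0.05.

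Library totals ran from 11760397 to 16266151 gene counts. Smooth muscle markers, which define the vessel wall, were found for 12 of 12 genes with summed levels of 3160 to 16061 CPM. Library GK 9 stood apart. Its summed CPM of 16 neuron and neuroendocrine markers was 1662, against 5.11 to 35.2 in the other 7 libraries, and all 16 were highest in it. Th and Dbh, enzymes of noradrenaline synthesis, had 1411 and 6369 counts in GK 9 and at most 38 and 78 elsewhere, both in control 9. Elavl4, a neuronal RNA-binding protein, had 199 counts in GK 9 and 0 in the other 7. Skeletal muscle markers summed to 17972 CPM in GK 9 and to at most 50.5 elsewhere, with all 10 highest in it. The 11 Schwann cell markers summed to 1405 CPM in GK 9, 171 to 706 in controls and 397 to 681 in the other GK libraries. Of these markers 9 were highest in GK 9, while S100b (446 CPM in control 9, 333 in GK 9) and Gfra3 were highest in control 9. The part of these cells in the results was not tested, and the 6 changed members, and members whose call turned on GK 9 in edgeR, are given with and without it. Sums of other lists also shifted between the groups, though those of brown adipocyte, smooth muscle, fibroblast and macrophage markers overlapped. Of 11 tested general adipocyte markers 4 rose and 0 fell, while Lep had 46.6 to 237 CPM in controls and 8.32 to 49.6 in GK. Of 10 macrophage markers 0 rose and 1 fell, while Cd68 had 22.3 to 31.7 and 19.3 to 59.7 CPM. Of 13 endothelial markers 4 rose and 0 fell, of 8 fibroblast markers 0 rose and 3 fell, and of 12 smooth muscle markers 0 rose and 2 fell. Of 4 tested brown adipocyte markers 1 rose and 0 fell, and of 10 tested Schwann cell markers 1 rose and 0 fell. No marker of the remaining lists changed. Beside these counts, 7.28% of all genes tested changed. General adipocyte markers summed to 8121 to 12610 CPM in controls and 13123 to 29991 in GK, brown adipocyte markers to 489 to 2847 and 1415 to 4828, smooth muscle markers to 6099 to 16061 and 3160 to 8676, and fibroblast markers to 3279 to 6927 and 1009 to 3424. Endothelial markers summed to 768 to 1204 and 1226 to 1471 CPM and macrophage markers to 473 to 1182 and 321 to 524, and the part of any of these lists was not tested either. Mast cell markers summed to 22.4 to 67.5 CPM in controls and 11.6 to 38.9 in GK, platelet markers to 10.8 to 95.0 and 13.8 to 43.0, lymphocyte markers to 11.1 to 26.9 and 9.82 to 34.6, and mesothelial and epithelial markers to 9.92 to 162 and 2.64 to 35.8. In whole tissue, fewer cells of a type and less RNA per cell cannot be told apart.

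Of the 58 genes, 45 passed the filter on low counts, and 6 of these changed. Synapsin 2 (Syn2), Syt7, Vamp1, Syt9 and Syt17 rose in GK, and Sytl5 fell. Over all 13673 genes tested, 7.28% changed, 3.96% higher and 3.31% lower. The median log2 fold change of the tested members was 0.08, against 0.00 over all genes tested, and 28 of the 45 lay within 0.5 of 0. These medians were -0.14 and -0.03 in the fit without GK 9. Without GK 9, 14 of 45 changed, 8 higher and 6 lower, where 22.1% of 13775 genes did (11.2% higher, 10.9% lower). All 6 genes changed in both fits. The fit without GK 9 added Stx12, Stx18 and Syt12 as higher and Stx3, Stx11, Syt11, Syt15 and Vamp5 as lower. The groups did not overlap in CPM for 8 tested members, namely the 6 changed genes with Stx5 and Stx17, where 15.6% of all genes tested showed no overlap. Syn2, Syt7 and Sytl5 changed in each of the 8 fits that left out 1 library. The member count was 3 without GK 7 and 3 without control 10, and 4 in the other 5 fits that kept GK 9. The number of all genes changed also moved when 1 library was left out, as the closing section gives. These member counts alone are therefore no result about the members.

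**Figure D1:**
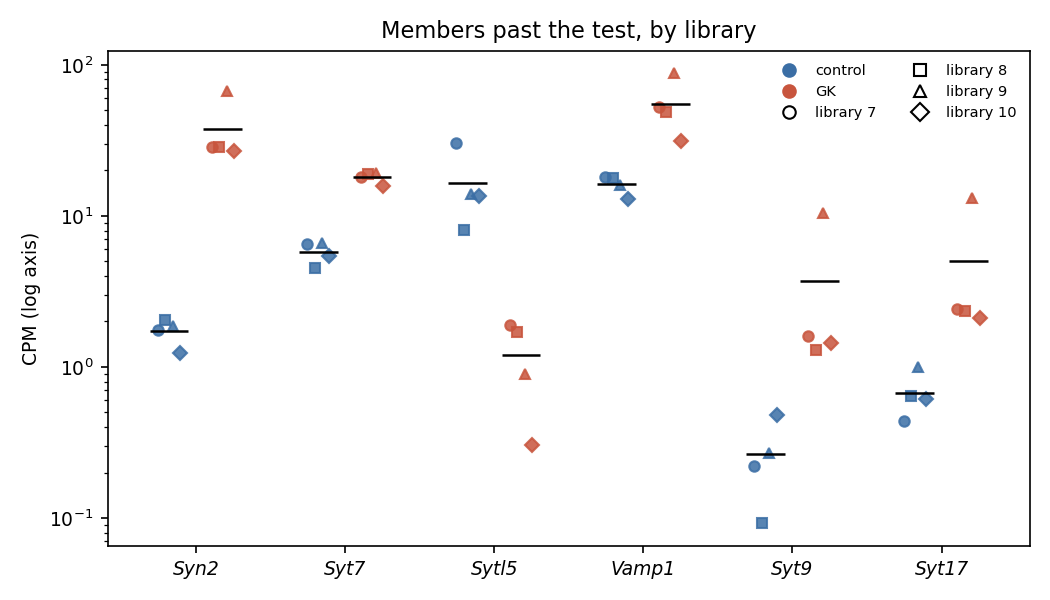
CPM of the 6 changed genes on a log axis, 1 point per library, blue for control and red for GK, with the marker shape giving the library number and bars giving group means. The groups do not overlap for any of the 6, and GK 9 (red triangle) is far above the other GK libraries for Syn2, Syt9 and Syt17 but not for Syt7.

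Promoter windows show the sequence before a RefSeq start of 4 of these genes: Syn2 and Vamp1, which rose, Sytl5, which fell, and Syn1, the sister gene of Syn2 that had few counts outside GK 9. Each window is the 250 bases before that start on GRCr8, written 5′ to 3′ on the gene's strand. Capitals mark matches on either strand to the GC box GGGCGG, the core site of Sp1-type factors, or to the cAMP response element TGACGTCA.
Syn2, chr4:149858669-149858918, plus strand: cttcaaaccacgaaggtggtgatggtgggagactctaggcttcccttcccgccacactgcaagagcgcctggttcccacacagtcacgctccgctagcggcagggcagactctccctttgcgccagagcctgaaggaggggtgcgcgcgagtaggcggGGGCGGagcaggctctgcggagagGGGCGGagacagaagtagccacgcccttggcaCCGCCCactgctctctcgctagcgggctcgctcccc
Vamp1, chr4:159698644-159698893, plus strand: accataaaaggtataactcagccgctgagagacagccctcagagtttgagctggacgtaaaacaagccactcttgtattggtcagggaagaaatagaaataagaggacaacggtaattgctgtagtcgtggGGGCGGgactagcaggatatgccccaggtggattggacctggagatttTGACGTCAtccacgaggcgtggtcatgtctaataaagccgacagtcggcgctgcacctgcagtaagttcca
Sytl5, chrX:15550273-15550522, minus strand: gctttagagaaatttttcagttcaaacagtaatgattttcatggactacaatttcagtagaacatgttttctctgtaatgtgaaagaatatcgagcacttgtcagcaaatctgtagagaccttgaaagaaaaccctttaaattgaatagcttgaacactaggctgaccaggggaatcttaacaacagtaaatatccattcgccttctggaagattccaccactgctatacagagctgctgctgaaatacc
Syn1, chrX:3725495-3725744, plus strand: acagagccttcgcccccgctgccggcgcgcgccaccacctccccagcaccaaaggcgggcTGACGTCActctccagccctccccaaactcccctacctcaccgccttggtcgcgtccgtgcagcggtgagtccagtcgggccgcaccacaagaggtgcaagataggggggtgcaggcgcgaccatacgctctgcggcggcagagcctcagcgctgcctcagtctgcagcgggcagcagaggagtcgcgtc
Syn2 held 3 GC boxes in a window of 66.8% G and C, Vamp1 held 1 GC box and 1 cAMP response element at 50.4%, and Syn1 held 1 cAMP response element at 69.6%. The Sytl5 window held neither and was 37.6% G and C, against a median of 51.2% over 33469 RefSeq windows. It lies inside the longer span that RefSeq gives this gene, so it does not stand before the gene's first start. GGGCGG occurred in 30.5% of all windows, counted per window, and TGACGTCA in 1.59%, and no match of one motif overlaps a match of the other in the 4 windows shown. Of the 57 symbols 43 had an entry, with 56 windows between them. Counted per symbol, which can match in any of its windows, 25 held GGGCGG and 2 held TGACGTCA, so these counts cannot be set against the shares per window. Syt7 and Syt17 had no entry.

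Which members the vessel carries at the highest level was read from FPKM, a count scaled to gene length and library size that allows different genes to be compared. The ubiquitous SNAREs led. Vamp3 (cellubrevin, the VAMP of recycling endosomes) had 53.5 ± 6.10 FPKM (SD, n = 4) in controls and 46.9 ± 3.82 in GK, and Vamp2, a VAMP of regulated secretion, 49.3 ± 6.01 and 53.6 ± 17.6. Vamp8, a VAMP of late endosomes and granules, followed with 31.8 ± 9.36 and 26.7 ± 3.12. Snap23, the widely expressed relative of Snap25, had 31.2 ± 4.68 and 21.0 ± 2.48, and the plasma membrane syntaxin Stx4 28.9 ± 1.87 and 20.01 ± 0.44. FPKM does not carry the TMM scaling, so the groups can lie further apart in it than in CPM. For Stx4 and Snap23 the groups did not overlap in FPKM but did in CPM, and neither gene passed edgeR's test. In controls Vamp3 and Vamp2 differed by less than either SD, and Vamp8 and Snap23 did too. The control mean was 23.7 FPKM for Stx12 and 22.1 for Stx6, 2 syntaxins of endosomes and the trans-Golgi network. At the other end 20 members had a control mean below 0.6 FPKM, 15 of them synaptotagmins (Syt) or synapsins. Syn2 ranked 38 of 58 in controls with 0.69 ± 0.15 FPKM and 14.5 ± 10.4 in GK, where GK 7 to 10 had 9.12, 10.6, 30.0 and 8.36. Vamp1 ranked 21 with 6.53 ± 0.92 and had 21.0 ± 12.7 in GK, with 16.9, 18.1, 39.2 and 9.85 in GK 7 to 10.

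**Figure D2:**
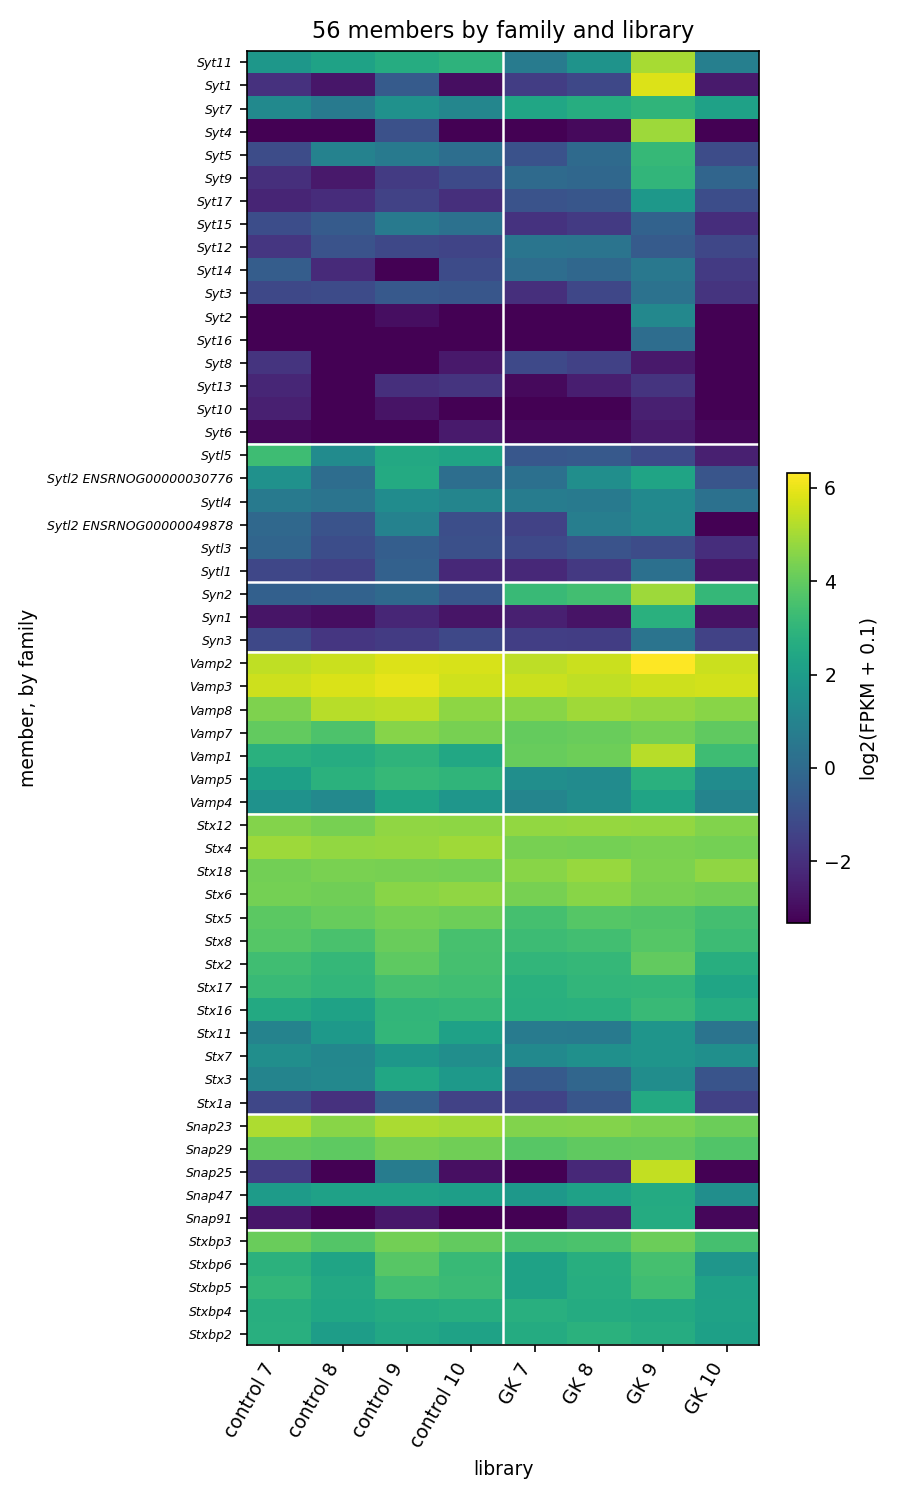
Level of 56 genes (rows, by family) in the 8 libraries (columns), coloured by log2(FPKM + 0.1). Vamp2, Vamp3, Stx12, Stx4 and Snap23 are high in every library, Syn2 and Vamp1 are higher in the 4 GK libraries, Sytl5 is lower there, and Syt1, Syt4 and Snap25 are high in GK 9 alone.

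Among synapsins, Syn2 alone was tested, since Syn1 and Syn3 did not pass the filter. Syn2 lies on chromosome 4 from 147037179 to 147195096 (coordinates throughout as in the authors' table, for which the sources used here name no rat build). Controls 7 to 10 had 1.76, 2.03, 1.88 and 1.23 CPM of Syn2, and GK 7 to 10 had 28.6, 28.7, 67.5 and 26.7. The lowest GK library was 13.1 times the highest control, and GK 9 was 2.35 times the next GK library. Syn2 rose by 4.46 ± 0.38 in log2 units (edgeR adjusted p = 0.00200), and by 4.03 ± 0.19 without GK 9 (adjusted p = 1.15e-04). The other 3 GK libraries lay within 26.7 to 28.7 CPM. Syn1 (chromosome X, 1321315 to 1379198) had 2, 1, 4 and 2 counts in the controls and 4, 2, 286 and 2 in GK, so its signal lay in GK 9. Syn3 had 31 counts in all controls and 63 in all GK libraries, with GK 9 3.08 times the next library.

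Each synapsin gene holds a Timp gene, an inhibitor of matrix metalloproteinases, inside its span: Timp4 in Syn2, Timp1 in Syn1 and Timp3 in Syn3. The sources used here do not say whether counting used the strand, so reads from overlapping genes may not be told apart. Timp4 had 34.4, 79.6, 52.4 and 39.5 CPM in the controls and 89.1, 101, 69.6 and 106 in GK, and the groups overlapped. The fitted log2 fold change was 0.83 ± 0.27 (edgeR adjusted p = 0.0939), and without GK 9 it rose by 0.95 ± 0.28 (adjusted p = 0.0448). GK 9, the GK library with the most Syn2, had the least Timp4, and in GK 7, GK 8 and GK 10 both genes lay above every control. Whether the 2 genes share reads was not tested. Timp1 had a log2 fold change of -0.73 ± 0.38 (edgeR adjusted p = 0.247), and without GK 9 it fell by 1.11 ± 0.31 (adjusted p = 0.0376). Timp3 had 426, 459, 318 and 516 CPM in the controls and 300, 335, 294 and 338 in GK, with a log2 fold change of -0.44 ± 0.18 (edgeR adjusted p = 0.157). A short record named LOC680161 also lies inside Syn2 and had 1 count in each group. LOC102555453, inside Syn1, had 74.9 to 109 CPM in controls and 53.4 to 76.7 in GK (log2 fold change -0.48 ± 0.18, edgeR adjusted p = 0.124).

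**Figure D3:**
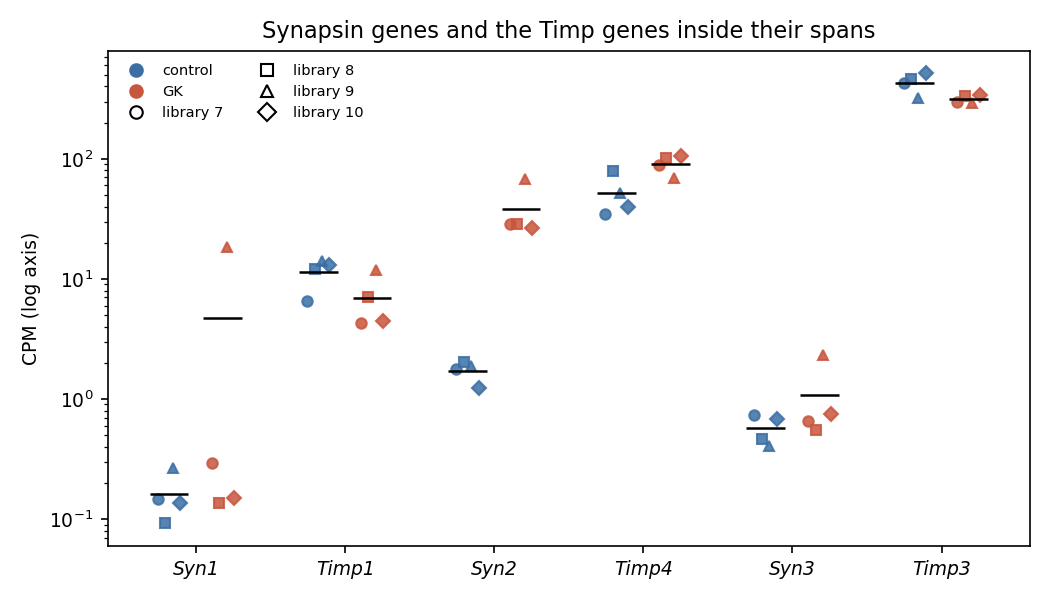
CPM on a log axis of the 3 synapsin genes, each beside the Timp gene inside its span, 1 point per library, with bars at group means. Syn2 separates the groups, Timp4 overlaps, and Syn1 is high in GK 9 (red triangle) alone.

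Among synaptotagmins, 10 of 17 were tested and 3 rose: Syt7, Syt9 and Syt17, beside 7.28% of all genes tested that changed. In the fit without GK 9, 4 of the 10 rose and 2 fell, beside 22.1%. Syt7 (chromosome 1, 226435979 to 226493377), a calcium sensor of slow release, of lysosome exocytosis and of membrane repair, had 6.53, 4.53, 6.64 and 5.46 CPM in the controls and 17.96, 18.9, 19.4 and 15.8 in GK. All GK libraries were at least 2.38 times the highest control, and GK 9 did not stand out. Syt7 rose by 1.63 ± 0.17 (edgeR adjusted p = 0.00360), and by 1.61 ± 0.18 without GK 9 (adjusted p = 0.00260). Syt9 (chromosome 1, 171592797 to 171769780), a calcium sensor of synaptic vesicles and dense-core granules, had 0.220, 0.0924, 0.268 and 0.478 CPM in the controls, which were 3, 1, 4 and 7 counts. In GK it had 1.61, 1.30, 10.4 and 1.43 CPM. The groups did not overlap, and GK 9 was 6.47 times the next library. The fit gave it a log2 fold change of 3.72 ± 0.88 (edgeR adjusted p = 0.0424) and 2.39 ± 0.45 without GK 9 (adjusted p = 0.0114). Syt17 (chromosome 1, 188034495 to 188101261), also called B/K protein, has no membrane-spanning segment. It had 0.440, 0.647, 1.01 and 0.614 CPM in the controls and 2.41, 2.33, 13.2 and 2.11 in GK, again without overlap and with GK 9 5.46 times the next library. Its log2 fold change was 2.87 ± 0.71 (edgeR adjusted p = 0.0478) and 1.75 ± 0.33 without GK 9 (adjusted p = 0.0122). For Syt9 and Syt17 leaving out any library but GK 9 ended the call, with edgeR adjusted p from 0.0630 to 0.102 for Syt9 and from 0.0649 to 0.136 for Syt17. With all 8 libraries the calls were also lost with no filter (edgeR adjusted p = 0.0537 for Syt9 and 0.0597 for Syt17) and with library totals alone (0.0758 and 0.0923), and DESeq2 gave no p for either gene.

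Several other synaptotagmins differed between the edgeR fits with and without GK 9 in direction or in call. Syt11, which does not bind calcium and restrains endocytosis, had 14.0, 21.4, 21.2 and 28.6 CPM in the controls and 7.74, 13.04, 119 and 8.61 in GK. The other 3 GK libraries were all below the lowest control, while GK 9 was 4.15 times the highest control. The fitted log2 fold change was 0.80 ± 0.86 with all libraries (edgeR adjusted p = 0.573), and without GK 9 Syt11 fell by 1.10 ± 0.27 (adjusted p = 0.0264). Syt15, also calcium-independent, had 1.54, 2.59, 4.83 and 4.09 CPM in the controls and 0.803, 0.892, 2.45 and 0.680 in GK. The fit gave it a log2 fold change of -1.42 ± 0.52 (edgeR adjusted p = 0.122), and without GK 9, the GK library that overlapped the controls, it fell by 2.02 ± 0.44 (adjusted p = 0.0180). Syt12, another member that lacks calcium binding, had 0.661, 1.76, 0.938 and 0.955 CPM in the controls and 5.18, 4.39, 1.74 and 1.36 in GK. GK 7 and GK 8 were high and GK 9 and GK 10 lay among the controls. Its log2 fold change was 1.56 ± 0.52 (edgeR adjusted p = 0.0976), and without GK 9 it rose by 1.78 ± 0.51 (adjusted p = 0.0415). DESeq2 called Syt12 with all 8 libraries (adjusted p = 0.0305). Syt3 and Syt5 changed sign without GK 9, from 0.05 to -0.76 and from 1.09 to -0.76, and neither passed the test in either fit. Syt14 had 30 counts in all controls and 103 in all GK libraries, with a log2 fold change of 1.67 ± 0.84 (edgeR adjusted p = 0.236).

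Of the 6 synaptotagmin-like genes, 5 were tested and Sytl5 changed, a Rab27-binding member on chromosome X (14019961 to 14109568). Sytl5 had 30.3, 8.04, 13.9 and 13.6 CPM in the controls and 1.90, 1.72, 0.903 and 0.302 in GK. Control 7 was the highest library, and the lowest control was 4.24 times the highest GK library. Sytl5 changed by -3.76 ± 0.59 (edgeR adjusted p = 0.0138) and by -3.63 ± 0.64 without GK 9 (adjusted p = 0.0101), and by -3.27 without control 7 (adjusted p = 0.0265). In FPKM it was the highest member of its family in controls, 5.70 ± 3.16, and had 0.37 ± 0.21 in GK. The other tested members did not pass the test. Sytl4, a granule protein that binds Rab27 and is also called granuphilin, had 3.51 to 5.30 CPM in controls and 3.62 to 5.23 in GK. The Sytl2 record ENSRNOG00000030776 had a log2 fold change of -0.12 ± 0.68 with edgeR adjusted p = 0.925, and its libraries ran from 1.91 to 9.52 CPM in controls and 1.21 to 8.45 in GK. It turned positive without GK 10 (0.19), without GK 7 (0.06) and without control 9 (0.44).

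All 7 VAMPs were tested, and Vamp1 was the member past the test, a call that scaling by library totals alone took away (edgeR adjusted p = 0.05002). Vamp1 (chromosome 4, 157726941 to 157733643), synaptobrevin 1 of motor and spinal synapses, had 18.1, 17.8, 16.0 and 13.03 CPM in the controls and 52.8, 49.1, 87.9 and 31.4 in GK. GK 10 was the lowest GK library and still 1.74 times the highest control, and GK 9 was the highest. Vamp1 rose by 1.77 ± 0.29 (edgeR adjusted p = 0.0161), and by 1.46 ± 0.21 without GK 9 (adjusted p = 0.00535). The call was lost without GK 7 (edgeR adjusted p = 0.0513) and without control 10 (adjusted p = 0.0606). Vamp2 had 90.1, 112, 97.4 and 105 CPM in the controls and 107, 104, 147 and 123.2 in GK, with overlap between the groups. The fitted log2 fold change was 0.25 ± 0.15 (edgeR adjusted p = 0.299). Vamp3 had 81.8, 104, 85.9 and 78.9 CPM in the controls and 97.1, 74.1, 71.4 and 106 in GK, a log2 fold change of -0.01 ± 0.17 (edgeR adjusted p = 0.981). Vamp5, found in muscle cells and called myobrevin, and Vamp8 are neighbours on chromosome 4 (100231561 to 100232559 and 100250301 to 100252755). Vamp5 had 1.32, 2.31, 2.14 and 2.18 CPM in the controls and 0.949, 0.755, 1.81 and 0.906 in GK. GK 9 lay among the controls and the other 3 GK libraries below them. The fit gave it a log2 fold change of -0.84 ± 0.35 (edgeR adjusted p = 0.166), and without GK 9 it fell by 1.17 ± 0.32 (adjusted p = 0.0365). Vamp8 had 6.46 to 12.8 CPM in controls and 6.97 to 9.54 in GK and passed in neither fit.

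No syntaxin passed the test with all 8 libraries: of 14 genes 13 were tested, 6 of them had an unadjusted p under 0.05 in edgeR, and DESeq2 called 2 of them, Stx3 (adjusted p = 0.0210) and Stx11 (adjusted p = 0.0427). Over all genes tested 27.6% had an unadjusted p under 0.05 in edgeR, and DESeq2 called 18.2%. Stx3, a syntaxin of apical and granule membranes, had 6.17, 7.40, 13.7 and 10.4 CPM in the controls and 2.12, 2.68, 6.90 and 1.81 in GK. GK 9 was the GK library that reached the controls. Its log2 fold change was -1.47 ± 0.47 (edgeR adjusted p = 0.0870), and without GK 9 it fell by 2.08 ± 0.33 (adjusted p = 0.00712). Stx11, needed for granule release by lymphocytes and platelets, had 3.60, 7.40, 13.1 and 7.92 CPM in the controls and 3.503, 2.88, 5.23 and 2.87 in GK. Control 7 and GK 9 made the groups overlap. The fitted log2 fold change was -1.14 ± 0.39 (edgeR adjusted p = 0.107), and without GK 9 it fell by 1.36 ± 0.40 (adjusted p = 0.0451). Stx18, a syntaxin of the endoplasmic reticulum, had 28.2, 33.4, 24.1 and 26.5 CPM in the controls and 43.4, 43.7, 26.9 and 46.7 in GK. Again GK 9 was the library that lay among the controls. The fit gave it a log2 fold change of 0.52 ± 0.19 (edgeR adjusted p = 0.128), and without GK 9 it rose by 0.68 ± 0.14 (adjusted p = 0.0158). Stx12 of recycling endosomes had 64.1 to 70.5 CPM in controls and 68.9 to 96.3 in GK, and without GK 9 it rose by 0.39 ± 0.11 (edgeR adjusted p = 0.0411). With all libraries its log2 fold change was 0.30 ± 0.13 (edgeR adjusted p = 0.165).

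The groups of Stx5 and Stx17 did not overlap, with small differences. Stx5, the Golgi syntaxin, had 26.1, 32.6, 28.0 and 29.8 CPM in the controls and 23.3, 24.9, 19.7 and 23.0 in GK. Its lowest control was 1.05 times the highest GK library. Its log2 fold change was -0.36 ± 0.13 (edgeR adjusted p = 0.115). Stx17, the syntaxin of autophagosomes, had 14.4 to 15.6 CPM in controls and 9.89 to 13.6 in GK, with a log2 fold change of -0.30 ± 0.14 (edgeR adjusted p = 0.213). Stx4 had 39.2, 38.5, 29.5 and 37.2 CPM in the controls and 31.4, 26.9, 23.1 and 31.2 in GK, a log2 fold change of -0.36 ± 0.15 (edgeR adjusted p = 0.161).

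Among SNAPs and syntaxin-binding genes 0 of 9 tested members passed edgeR's test, with or without GK 9. With all libraries 1 of them, Snap23, had an unadjusted p under 0.05 (27.6% of all genes did), and DESeq2 called 0 (18.2% of all genes). Snap23, the partner of Stx4, had 21.7, 16.8, 17.4 and 18.4 CPM in the controls and 16.9, 15.0, 11.3 and 13.4 in GK. GK 7 alone reached the lowest control. The fitted log2 fold change was -0.39 ± 0.16 (edgeR adjusted p = 0.160). Snap29, a SNAP of autophagosomes and other intracellular membranes, had at least 54.7 CPM in every control and 45.2 to 55.5 in GK, a log2 fold change of -0.11 ± 0.10 (edgeR adjusted p = 0.529). Stxbp3 (Munc18c), which binds Stx4, had 36.7 to 43.4 CPM in controls and 30.5 to 37.8 in GK, a log2 fold change of -0.21 ± 0.11 (edgeR adjusted p = 0.279). The members of the GLUT4 fusion machinery, Vamp2, Stx4, Snap23 and Stxbp3, passed edgeR's test in neither fit and DESeq2 called none of these 4. Stx4 and Snap23 had an unadjusted p under 0.05 in edgeR with all libraries, and general adipocyte markers had the summed levels given above.

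**Figure D4:**
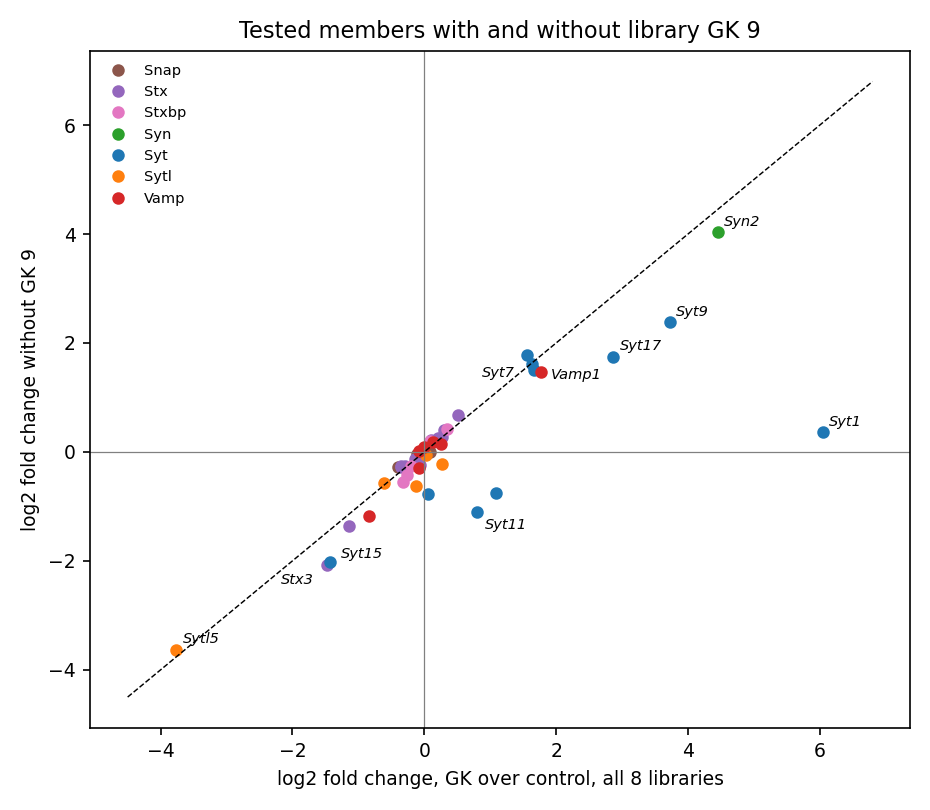
Log2 fold change of 43 tested genes from all 8 libraries (x axis) and without GK 9 (y axis), coloured by family, with a dashed line of equality. Syt1 drops from 6.05 to 0.37, Syt11 changes sign, and Syn2, Syt7, Vamp1 and Sytl5 stay near the line.

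GK 9 was the highest of 8 libraries for 26 of the 58 genes (19.2% of all genes) and at least 4-fold above every other library for 11 of 58 (4.36% of all genes). These 11 were Snap25, Snap91, Stx1a, Syn1, Syt1, Syt2, Syt4, Syt9, Syt11, Syt16 and Syt17. Syt1, the sensor of fast transmitter release, had 11, 3, 36 and 2 counts in the controls and 20, 25, 3820 and 5 in GK. GK 9 was 102 times the next library in CPM. Its log2 fold change was 6.05 ± 2.15 (edgeR adjusted p = 0.116) and 0.37 ± 0.87 without GK 9 (adjusted p = 0.784). Snap25, the SNAP of nerve endings and endocrine cells, had 7, 0, 43 and 1 counts in the controls and 0, 4, 1309 and 0 in GK. Syt4, a synaptotagmin of dense-core vesicles, had 20 counts in control 9, 1518 in GK 9, 1 in GK 8 and 0 in the other 5 libraries. Snap91 had 356 counts in GK 9 and at most 5 elsewhere, Syt2, the fast sensor of motor synapses, 88 and at most 1, and Stx1a, the plasma membrane syntaxin of neurons, 160 and at most 17. Syt16 had 32 counts in GK 9 and 0 in the other 7, where a count of 0 allows up to 3 counts, or 0.201 to 0.277 CPM, for counting error only. Control 9 held the highest control value for Syt1, Syt4 and Snap25, and it had the highest control sum of neuron markers, 35.2 CPM against 9.80 to 15.3. Of the 13 members not tested, the other 6 (Syn3, Syt6, Syt8, Syt10, Syt13 and Sytl1) had at most 63 counts in all in either group.

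**Figure D5:**
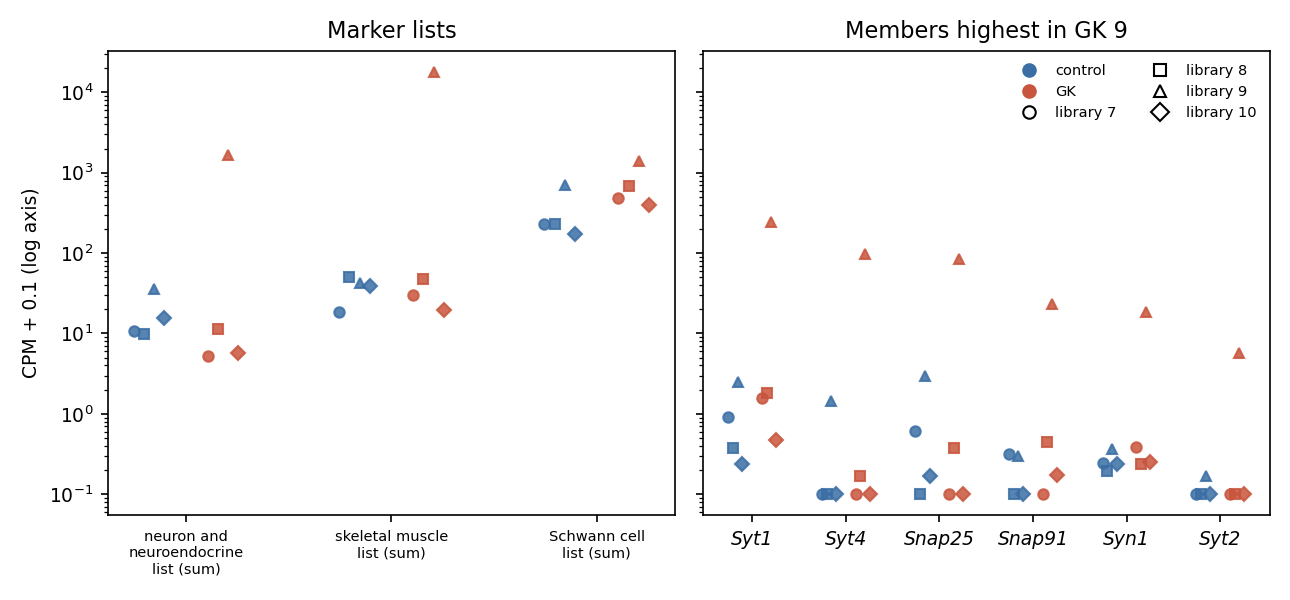
Summed CPM + 0.1 of the neuron and neuroendocrine, skeletal muscle and Schwann cell marker lists (left) and CPM + 0.1 of 6 members (right), on a log axis, 1 point per library. GK 9 (red triangle) is above every other library in all of them, with control 9 (blue triangle) second for Syt1, Syt4 and Snap25.

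Other genes of vesicle docking, priming and SNARE recycling were taken from a list of 81, of which 77 were found and 62 tested. Of these 6 rose and 1 fell, beside 7.28% over all genes, and without GK 9 8 rose and 3 fell, beside 22.1%. Rims2, a scaffold of the active zone where vesicles dock, had 1.39, 0.924, 1.47 and 0.819 CPM in the controls and 10.3, 6.45, 7.29 and 4.53 in GK. The groups were apart and GK 7, not GK 9, was the highest. Rims2 rose by 2.62 ± 0.34 (edgeR adjusted p = 0.00733; 2.62 ± 0.36 without GK 9) and passed the test in all 14 alternatives run on it. Cplx1, a complexin that clamps SNARE bundles, had 0.220, 0.555, 1.21 and 0.546 CPM in the controls and 4.23, 3.57, 25.9 and 2.64 in GK, and rose by 3.82 ± 0.90 (edgeR adjusted p = 0.0416; 2.45 ± 0.48 without GK 9). Rab27a, the small GTPase of secretory granules to which Sytl proteins bind, had 23.3, 30.2, 42.2 and 37.8 CPM in the controls and 10.6, 13.5, 23.0 and 11.8 in GK. Its lowest control exceeded the highest GK library by 1.01 times, and Rab27a changed by -1.18 ± 0.29 (edgeR adjusted p = 0.0452; -1.46 ± 0.22 without GK 9). Mlph, melanophilin, which links Rab27a to a myosin motor, rose by 2.28 ± 0.40 (2.18 ± 0.42 without GK 9), with 0.341 to 1.07 CPM in controls and 2.40 to 3.61 in GK. Syngr1, a vesicle membrane protein, rose by 1.53 ± 0.35 (1.55 ± 0.38 without GK 9), with 2.05 to 5.92 CPM in controls and 9.21 to 11.9 in GK. Napa, the adaptor that brings NSF to spent SNARE bundles, rose by 0.61 ± 0.13 (0.69 ± 0.13 without GK 9), with 49.6 to 62.2 and 72.4 to 92.9 CPM. Vps45, a Sec1/Munc18 protein of endosomes, rose by 0.76 ± 0.19 (0.92 ± 0.13 without GK 9), with 17.5 to 21.3 and 21.6 to 37.4 CPM. All of these but Rims2 lost their calls in at least 3 of the fits that left out 1 library, with edgeR adjusted p up to 0.142 for Vps45 without control 10. The fit without GK 9 added Gosr2, a Golgi SNARE, and Dysf, a membrane repair protein, as higher, and Sv2a and Sv2c, vesicle glycoproteins, as lower. Sv2c had 8.71 to 20.2 CPM in controls, 43.8 in GK 9 and 2.12 to 3.93 in the other GK libraries. The fitted log2 fold change was -0.19 with all libraries and -2.22 without GK 9 (edgeR adjusted p = 0.00817).

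The authors' deposited pair table joins lncRNA transcripts to predicted target genes. It names a member for 47 transcripts: 44 are in trans with Syt3 and 3 are in cis with Syt7 or Sytl5. The table lists lncRNAs that the authors called changed, so the share that changed here reads as a consequence of that choice: 22 were tested, 9 rose and 6 fell, beside 2.74% of 11683 transcripts. NONRATT001547.2 lies 2001 bases from Syt7 (chromosome 1, 226495378 to 226496373). It had 48, 32, 41 and 52 counts in the controls and 111, 128, 146 and 80 in GK, without overlap of the groups in CPM. It rose by 1.45 ± 0.19 (edgeR adjusted p = 0.00914; 1.41 ± 0.21 without GK 9), beside 1.63 ± 0.17 for Syt7. MSTRG.43367.1 lies 8747 bases from Sytl5 (chromosome X, 14118315 to 14122749) and had 175, 19, 64 and 64 counts in the controls and 3, 3, 9 and 0 in GK. Control 7 was the highest library, as it was for Sytl5. It changed by -4.31 ± 0.79 (edgeR adjusted p = 0.0289; -5.06 ± 0.90 without GK 9), beside -3.76 ± 0.59 for Sytl5. The call was lost without GK 7, GK 8, GK 10, control 9 or control 10, with adjusted p from 0.0514 to 0.102. NONRATT030428.2, 95 bases from the other end of Sytl5, had 21, 4, 7 and 10 counts in the controls and 1, 0, 2 and 0 in GK and was not tested. The sources used here do not state whether counting used the strand or how far reads of a gene run past its annotated end, so transcripts this close may hold reads of the gene itself. Among trans pairs MSTRG.23736.1 had 214, 88, 95 and 223 counts in the controls and 2, 1, 8 and 4 in GK, and changed by -5.27 ± 0.52 (edgeR adjusted p = 0.00305; -5.81 ± 0.54 without GK 9). Its predicted target Syt3 had a log2 fold change of 0.05 ± 0.54 (adjusted p = 0.961).

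Genes beside the changed members were read in the same fit, the nearest 3 tested genes on each side, 36 in all. Those that changed were Dagla, Olfml1 and Dchs1, beside 7.28% of all genes tested. The 6 neighbours of Syn2, among them Pparg 79011 bases away, had log2 fold changes of -0.34 to 0.48 and edgeR adjusted p of 0.290 or more. Dagla, a lipase that makes an endocannabinoid and lies 82368 bases from Syt7, rose by 1.19 ± 0.18 (edgeR adjusted p = 0.0120; 1.26 ± 0.19 without GK 9). Olfml1, 24002 bases from Syt9, fell by 0.72 ± 0.11 (edgeR adjusted p = 0.0124; by 0.70 ± 0.13 without GK 9), and Dchs1, 963882 bases from it, fell by 0.82 ± 0.20 (adjusted p = 0.0440; by 0.90 ± 0.20 without GK 9). With all libraries the 18 neighbours of Sytl5, Vamp1 and Syt17 had edgeR adjusted p of 0.0554 or more. The fit without GK 9 added Srpx and Tspan7 beside Sytl5, snoU85 beside Vamp1 and Myrf beside Syt7 as lower. It added Ltbr beside Vamp1, Sdhaf2 beside Syt7 and Tpp1 beside Syt9 as higher. Their edgeR adjusted p ran from 0.0104 for Sdhaf2 to 0.0485 for Tpp1, in a fit where 22.1% of all genes changed.

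The authors' deposited table calls 9 of the 58 genes, 8 up and 1 down. Its calls share Syn2, Syt7, Syt9, Syt17, Vamp1 and Sytl5 with the 6 above and add Syn1, Syt1 and Snap91. In these 3, GK 9 was 63.2, 102 and 66.9 times the next library. The authors' deposited table gives them q-values of 0.0154, 0.00362 and 0.0277. The authors' deposited enrichment table has 235 terms that hold at least 1 of these 9 genes, and 85 of them have a q-value under 0.05. Among these in the authors' deposited table are vesicle (8 of the 9 genes, q-value 1.98e-11), synapse (6, q-value 1.92e-05), calcium ion-regulated exocytosis of neurotransmitter (5, q-value 0.0230), syntaxin binding (5, q-value 0.0426) and exocytic vesicle (6, q-value 0.0452). In the authors' deposited table the term synaptic vesicle holds 13 changed genes of 127, all up and 5 of them members (Syn1, Syn2, Syt1, Syt9 and Vamp1), with a p-value of 0.0107 and a q-value of 0.0965. The term vesicle fusion in the authors' deposited table holds 4 of 68 genes, 2 up and 2 down, among them Syt1 and Vamp1, with a p-value of 0.482 and a q-value of 1. These terms rest on the same samples and are no independent evidence.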

How the data were processed

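Total RNA libraries of rat thoracic aorta were analysed from gene and lncRNA tables of whole-number counts as deposited, and the authors' gene table also gave FPKM, log2 ratios, p-values and q-values. The submitters' processing notes list Bowtie 0.12.2 beside 2 mouse builds, mm8 and mm9, with no role stated; the rat build, the counter and the use of strand are not given in the sources used here. Groups were taken from titles, strain and group labels.

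Counts were tested with edgeR 4.0.16 in R 4.3.3 (quasi-likelihood test, filterByExpr, TMM, Benjamini-Hochberg adjustment over 13673 genes or 11683 lncRNA transcripts, adjusted p under 0.05, two-sided). DESeq2 1.42.0, DESeq2 size factors, library totals alone, no filter, a replicate block and leaving out each library were alternatives. Levels of different genes were compared in deposited FPKM. CPM is scaled to the TMM-adjusted gene total, and with totals of 11760397 to 16266151 a floor of 3 counts is 0.194 to 0.277 CPM.

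The vesicle fusion genes, the partner and marker lists and the tests were chosen with earlier results of these data known. Genes named were members past the test, the 2 of highest FPKM in each of 7 families, the 12 of lowest p, members whose groups do not overlap, up to 10 changed partners, and the paired lncRNA of lowest p for each member. Results of 2 members are not reported here by name. Other genes were named after their values were seen. Promoters are RefSeq windows on GRCr8.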

Additional observations from a re-analysis of the deposited data

Results flagged for a closer look

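In 78 groups of 4 libraries examined, 17 had 1 library whose gap to the nearest other, as a share of the group's range, passed Dixon's 95% critical value. Of the 17, 15 were GK groups, and GK 9 was the extreme library in all 15. Chance flags about 1 in 20 groups of normally distributed values. Snap25, Snap91, Stx1a, Syt2, Syt4 and Syt16 were examined with their high GK 9 values known, so the counts cannot be set against that rate. The gap shares in GK were 0.952 for Syn2, 0.967 for Syt9, 0.973 for Syt17, 0.952 for Syt11, 0.995 for Syt1 and 0.992 for Syn1. They were 0.830 for Stx3, 0.880 for Syt15 and 0.932 for Cplx1. Among members not tested they were 0.997 for Snap25, 0.985 for Snap91, 0.957 for Stx1a and 0.999 for Syt4, and 1 for Syt16 and for Syt2, whose other GK libraries were at 0. In the controls, control 9 was the extreme library for Syt2 and Syt4 with a gap share of 1, where the other controls had 0 counts. Syt2 had 1 count in control 9, which is below the floor of 3 counts, and Syt4 had 20.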

How the results depend on the processing

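The 995 changed genes became 2489 with DESeq2, 473 with library totals alone, 654 with no filter, 2372 with the replicate block, 2534 without both libraries numbered 9, 631 with a fold minimum of 2, and 135 (without control 10) to 3046 (without GK 9) when 1 library was left out. The 6 changed members became 3 with totals alone and 10 without both libraries numbered 9, and 3 to 14 with 1 library left out; DESeq2 gave 7 (no p for Syt9 and Syt17), no filter 4 and the replicate block 8. The 7 partners became 15 with DESeq2, 1 with totals alone, 11 with the block, 12 without both libraries numbered 9, and 1 to 11 with 1 library left out. The 15 paired lncRNAs became 6 with no filter, and 5 to 16 with 1 library left out. The cause was not tested. Same-numbered libraries share a number, and the sources used here do not state whether they were paired. Their deviations correlated at 0.42, 0.068, 0.55 and 0.025 for numbers 7 to 10, and control 8 and control 10 correlated best with another number. Without GK 9, 9 of 45 tested members changed sign, among them Syt3, Syt5, Sytl4 (0.03 to -0.05), Vamp8 (-0.08 to 0.01) and the Sytl2 record ENSRNOG00000049878 (0.28 to -0.22). Among genes refitted under each alternative, directions reversed for Syt11 (block -0.28, without both -1.12; -1.10 without GK 9 to 1.13 without GK 7), the Sytl2 record ENSRNOG00000030776 (without GK 10 0.19, without GK 7 0.06, without control 9 0.44, lowest -0.62 without GK 9) and Vamp3 (DESeq2 size factors 0.0049, DESeq2 0.0050, no filter 0.0018, without both 0.065; without GK 8 0.065 and control 8 0.084; -0.12 without GK 10 to 0.089 without GK 9). Library totals alone moved the median of all genes to -0.16. Syn2, Syt7 and Sytl5 kept direction and call in 14 of 14 alternatives each. Genes with few counts, such as Syt9 with 15 counts over the 4 controls, are limited by depth.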
